A study of Mus musculus with 42 samples.

Results

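The 10 genes described here encode nuclear receptors and coactivators that set how the liver handles fat, sterols and foreign compounds: Ppara, Ppard, Pparg, Rxra, Nr1h3, Nr1i2, Hnf4a, Nr5a2, Ppargc1a and Ppargc1b. They were chosen by name and not by a rule on their values, but with earlier results of these data known. All 10 were listed in each of the 6 deposited tables, out of 19732 genes listed in any table and 12742 listed in all 6.

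Whole livers came from male C57BL/6J mice, with 7 mice in each of 6 groups and 1 library per mouse. ChemR23, the receptor for the lipid mediator resolvin E1 (RvE1), is encoded by Cmklr1, and the knockout (KO) mice carried a CRISPR/Cas9 deletion of it, with wildtype (WT) littermates as controls. WT lean and KO lean mice ate a diet with 10% of its energy as fat, and WT obese and KO obese mice ate one with 60%, from 6 weeks of age and for 15 weeks. WT obese+RvE1 and KO obese+RvE1 mice ate the high fat diet and received 300 ng RvE1 on 4 days before harvest on day 5, while every other group received an ethanol and PBS vehicle. All mice had fasted for at least 4 h. Each table holds the reads per gene of 14 mice, scaled to that table, and groups were compared only within a table. WT lean, KO lean, WT obese and KO obese mice each appear in more than 1 table, so the comparisons that use them are not independent.

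Between 15960120 and 43755273 reads per library fell on listed genes, with a median of 24253532. Cmklr1 itself ran from 9.72 to 22.6 normalized counts in KO lean against 40.8 to 114 in WT lean mice, and from 5.08 to 23.2 in KO obese against 33.3 to 102 in WT obese mice. All 6 hepatocyte markers were listed, and their summed level ran from 776240 to 1940100 normalized counts over the 42 mice. These values came from separately scaled tables, so part of that range can come from the scaling. Nothing in the labels says which mice shared a cage or litter. The main p-values measure the spread between these mice, taken as independent. They may be too small if mice whose identifiers open with the same number are alike. In whole liver, fewer cells of a type and less RNA per cell cannot be told apart.

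The PPARs are receptors for fatty acids. PPARα drives fatty acid oxidation and ketone formation in the fasted hepatocyte, PPARδ is expressed in most tissues and also favours fat oxidation, and PPARγ is the master regulator of fat cells that promotes lipid storage and is low in healthy hepatocytes. LXRα (Nr1h3) senses oxysterols and PXR (Nr1i2) senses bile acids and foreign compounds. All of these bind DNA as pairs with RXRα (Rxra). HNF4α (Hnf4a) and LRH-1 (Nr5a2) maintain hepatocyte gene expression and bile acid synthesis, and PGC-1α (Ppargc1a) and PGC-1β (Ppargc1b) are coactivators recruited by many of these receptors.

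Pparg was higher on the high fat diet in livers of both genotypes, and it was the only one of the 10 genes called in any comparison by limma. With the leading number of the mouse identifiers as a random block, the KO call was kept (adjusted p = 0.0306) and the WT call was lost (adjusted p = 0.130). What that number marks is not stated, and below this fit is called the block. A gene was called at a Benjamini-Hochberg adjusted p under 0.1 in limma, fitted over all genes of a table on log2(normalized count + 1). Of the 10 genes, 1 was called in WT obese vs WT lean mice, where 6.27% of 14012 tested genes were called, and 1 in KO obese vs KO lean mice, where 24.1% of 14213 were called. At an unadjusted p under 0.05 the counts were 3 of 10 in WT mice, beside 18.2% of genes, and 1 of 10 in KO mice, beside 32.0%. None was called by limma for genotype or for RvE1. The background for higher calls alone was 3.65% in the WT and 12.0% in the KO diet comparison.

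**Figure D1:**
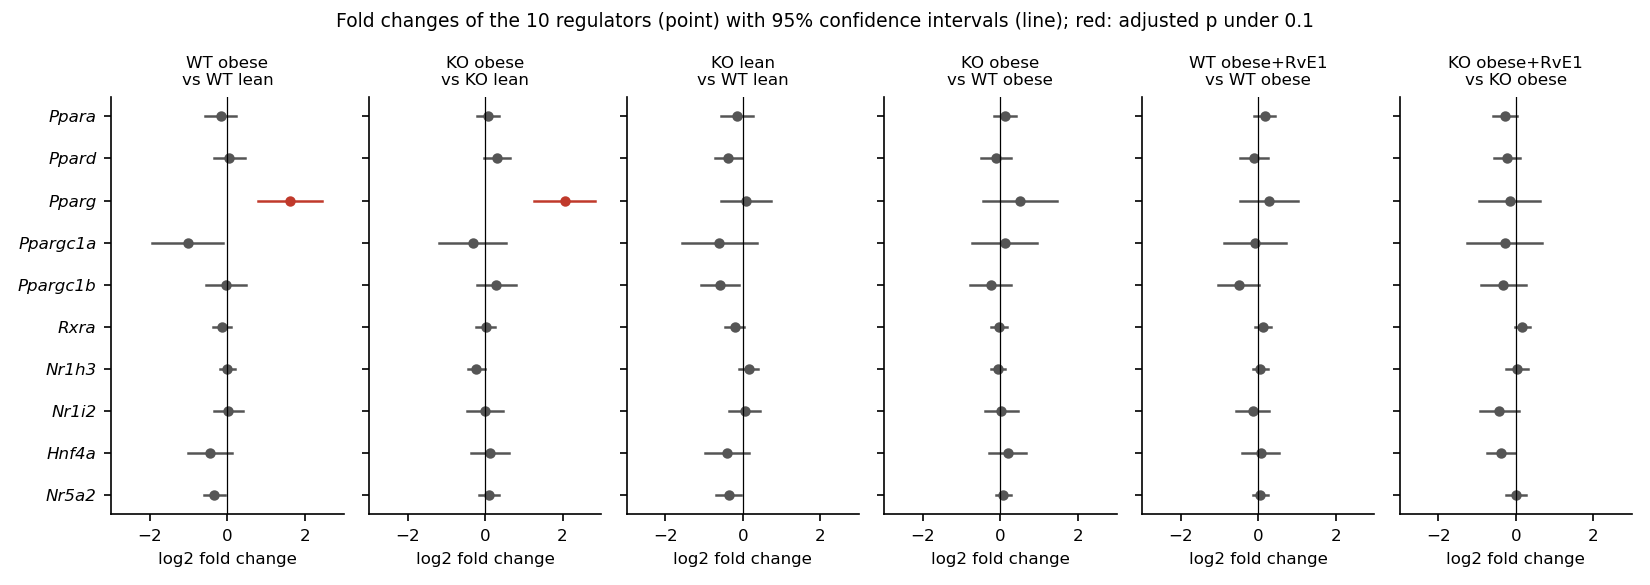
Log2 fold changes (horizontal axis, points) of the 10 genes with 95% confidence intervals (lines) in the 6 comparisons, with genes called at an adjusted p under 0.1 in red. Pparg is red in the 2 diet comparisons, at 1.62 in WT and 2.05 in KO mice, and no other gene is called.

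In the livers of WT lean mice, Hnf4a, Ppara and Rxra stood at the top of the order of level per length and Pparg at the bottom. Per kb of exon, Hnf4a stood at 5546 ± 1990.5 normalized counts (SD, n = 7), Ppara at 4413 ± 1274 and Rxra at 2728 ± 299. The ranges over mice of neighbours in this order overlapped, except between Rxra and the next gene, Nr1i2, at 960 ± 227, and between Nr1h3 at 685 ± 53.5 and Nr5a2 at 252 ± 55.6. The last 4 were Ppargc1a at 194 ± 108, Ppargc1b at 54.0 ± 20.0, Ppard at 25.9 ± 5.52 and Pparg at 18.6 ± 7.23, all on the same scale per kb.

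Pparg lies on the plus strand at chr6:115360951-115490399 of GRCm38 (mm10), and RefSeq places 3 transcription start sites in it. Separate promoters give rise to the isoforms PPARγ1 and PPARγ2, and a count per gene sums over all of them. The bases before starts 2 and 3 are shown because Pparg carries the change described here and its count could come from either. The run before start 2 stops where GENCODE M21 places an exon of another transcript. Capitals mark CCAAT or its reverse complement ATTGG.
Pparg start 2, chr6:115362099-115362291, GRCm38, plus strand: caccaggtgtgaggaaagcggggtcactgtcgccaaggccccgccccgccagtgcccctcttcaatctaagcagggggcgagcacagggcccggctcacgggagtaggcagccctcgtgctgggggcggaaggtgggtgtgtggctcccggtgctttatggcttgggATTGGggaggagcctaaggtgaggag
Pparg start 3, chr6:115421816-115422065, GRCm38, plus strand: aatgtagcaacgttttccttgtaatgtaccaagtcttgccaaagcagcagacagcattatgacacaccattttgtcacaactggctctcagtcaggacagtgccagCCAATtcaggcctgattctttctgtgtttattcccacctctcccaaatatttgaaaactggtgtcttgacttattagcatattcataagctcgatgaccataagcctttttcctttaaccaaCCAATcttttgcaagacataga
In RefSeq's windows of 250 bases before to 50 after a start, searched on both strands, CCAAT stood in 37.4% of all 32851 promoters and in 7 of the 15 windows that RefSeq gives for 9 of the 10 genes. The half-site AGGTCA, which nuclear receptors bind, stood in 16.3% of them and in 4 of the 15 windows, including those of Pparg starts 1 and 2. DR1, the letters AGGTCA repeated after 1 base of any kind and so containing the half-site, stood in 0 of the 15 and in 0.0396% of all promoters. A match is only a description of the letters, and the absence of one says nothing about binding.

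In WT lean mice Pparg ran from 28.0 to 84.5 normalized counts with a median of 57.1, and in WT obese mice from 43.2 to 369 with a median of 165. Of the WT obese mice 6 of 7 lay above every lean mouse and 1, 27RL, lay within the lean range, so the groups overlapped, as they did for all but 1.36% of genes tested. The fold change was 1.62 on the log2 scale (SE 0.39, 95% interval 0.80 to 2.45, limma adjusted p = 0.0312), or 3.08-fold. In KO lean mice Pparg ran from 30.3 to 99.9 with a median of 64.6, and in KO obese mice from 104 to 559 with a median of 307. All 7 KO obese mice lay above all KO lean mice, which held for 2.10% of genes tested. The log2 fold change was 2.05 (SE 0.37, interval 1.27 to 2.84, limma adjusted p = 0.00444), or 4.15-fold.

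**Figure D2:**
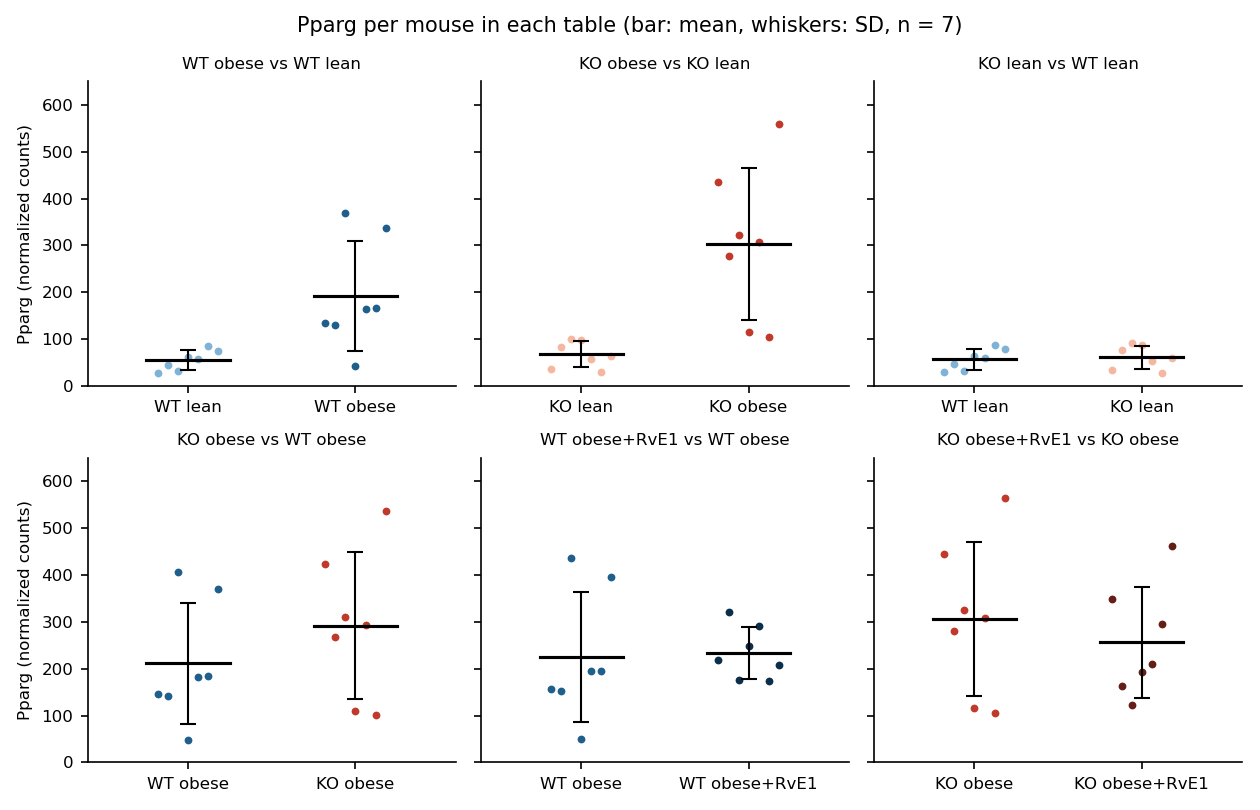
Normalized counts of Pparg (vertical axis) in each mouse (points) in the 6 tables, with the mean (bar) and SD (whiskers) of 7 mice per group. KO obese mice lie at 104 to 559 above KO lean mice at 30.3 to 99.9, and in the RvE1 tables the treated and untreated groups overlap.

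The diet response of Pparg was not shown to differ between genotypes. The KO response was higher than the WT response by 0.43 on the log2 scale, with an interval from -0.74 to 1.61 (SE 0.57, limma interaction over both tables, adjusted p = 0.738). KO lean and WT lean mice overlapped at 27.5 to 90.7 and 29.1 to 87.9 normalized counts, with a log2 difference of 0.08 (SE 0.30, limma adjusted p = 0.892). Obese KO and WT mice overlapped as well, at 100 to 538 and 47.5 to 408 normalized counts. Their log2 difference was 0.51 (SE 0.45, interval -0.44 to 1.47, limma adjusted p = 1.00).

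Under the block the log2 fold change was 1.63 in WT (SE 0.48, limma adjusted p = 0.130, not called) and 2.01 in KO mice (SE 0.46, limma adjusted p = 0.0306). Adipoq, Lep, Plin1 and Retn, hormones and a droplet coat of fat cells, were listed only in the table of obese KO and WT mice, where 12 of 14 mice had 0 to 3 reads of each. WT obese mouse 6L had 33 reads of Adipoq and 54 of Lep, and KO obese mouse 10R had 23 and 41. In that table their Pparg stood at 182 and 310 normalized counts, against medians of 182 in WT obese and 294 in KO obese mice. Without 6L the WT fold change was 1.61 (limma adjusted p = 0.0533), and without 10R the KO one was 2.00 (limma adjusted p = 0.0115). Cfd, a fat cell serine protease, was higher with the diet in WT (log2 fold change 4.34, SE 0.38, limma adjusted p = 1.76e-05) and in KO mice (3.01, SE 0.88, limma adjusted p = 0.0328). The part of these markers in the Pparg change was not tested.

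Some genes that PPARγ is known to induce were higher as well. Of 9 listed targets, 7 could be tested for diet, and 2 were higher and 0 lower in each genotype. Under the block 1 was higher in WT and 2 in KO mice, and the WT count was also 1 without WT lean mouse 19R or WT obese mouse 27-2R, 6RL or 6R. Cd36, a fatty acid transporter, was called in both, with log2 fold changes of 1.59 in WT (SE 0.33, limma adjusted p = 0.0140) and 1.46 in KO mice (SE 0.36, limma adjusted p = 0.0175). It was the one target called in both genotypes, and the other called target was Mogat1, an acyltransferase of triglyceride synthesis, in WT mice (2.04, SE 0.57, limma adjusted p = 0.0643) and Plin4, a lipid droplet protein, in KO mice (2.02, SE 0.36, limma adjusted p = 0.00425). The medians over tested targets were 1.46 in WT and 0.94 in KO mice, beside 0.00 over all genes in both. Cidec, a droplet protein named after its values were seen, was not called, at 0.23 in WT (SE 0.48) and -0.12 in KO mice (SE 0.47).

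Ppara was not called for diet in either genotype, while several of its target genes fell in both. Ppara, at chr15:85734983-85802819 on the plus strand, ran from 9432 to 23089 normalized counts in WT lean mice with a median of 15627, and from 10795 to 20363 in WT obese mice with a median of 14233. The groups overlapped throughout. The log2 fold change was -0.18 in WT (SE 0.19, interval -0.58 to 0.23, limma adjusted p = 0.683) and 0.08 in KO mice (SE 0.14, interval -0.22 to 0.37, limma adjusted p = 0.745).

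Of 28 PPARα targets, 7 fell and 0 rose in WT obese vs WT lean mice, where 2.61% of all genes were called lower, and 16 fell and 0 rose in KO obese vs KO lean mice, where 12.1% were called lower. The median log2 fold change over the list was -0.27 in WT and -0.55 in KO mice. In both genotypes, whose diet comparisons share no mouse, 6 targets fell: Acot1, Cyp4a10, Cyp4a31, Ehhadh, Fgf21 and Plin2. Cyp4a31, an ω-hydroxylase, fell by 2.76 on the log2 scale in WT mice (SE 0.43, limma adjusted p = 0.00250), from 883 ± 327 to 163 ± 127 normalized counts (SD, n = 7). Mlycd, which breaks down malonyl-CoA, fell by 1.07 in KO mice (SE 0.15, limma adjusted p = 0.00187), from 9311 ± 2026 to 4362 ± 496 (SD, n = 7).

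Further targets are named here after their values were seen. Ehhadh, the peroxisomal bifunctional enzyme, fell by 1.48 in WT and 1.81 in KO mice on the log2 scale, and the hepatokine Fgf21 was at -1.68 and -1.39, called in both. Hadhb, a subunit of the mitochondrial trifunctional protein, fell by 0.66 in KO mice (SE 0.19) and was at -0.25 in WT mice (SE 0.16), where it was not called. Cpt1a, the gate to mitochondrial oxidation, was at -0.40 (SE 0.15) and -0.08 (SE 0.16) and was not called. With the identifier number as block, 5 targets were called lower in WT and 9 in KO mice. With single mice left out, 5 to 9 were called lower in WT and 11 to 16 in KO mice.

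**Figure D3:**
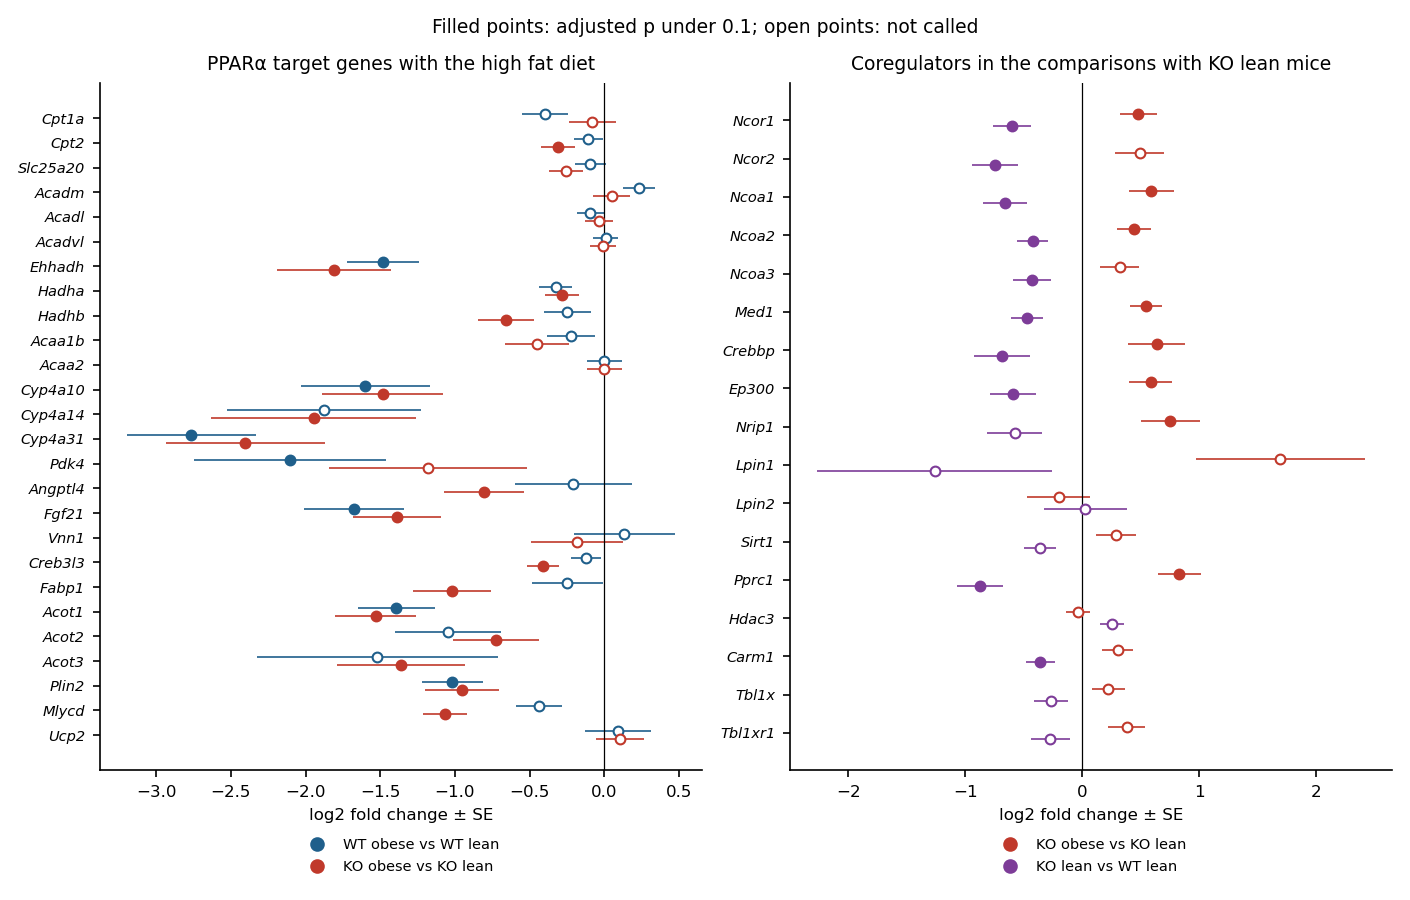
Log2 fold changes (horizontal axis, points, with SE as lines) of the PPARα targets shown in the 2 diet comparisons (left) and of 17 coregulators in the 2 comparisons that share the KO lean mice (right), with filled points for adjusted p under 0.1. Filled targets all lie below 0, 7 in WT and 16 in KO mice, and filled coregulators lie above 0 in KO obese vs KO lean (8) and below 0 in KO lean vs WT lean mice (10).

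Ppard, at chr17:28232700-28301474 on the plus strand, was low and was not called. It ran from 160 to 256 normalized counts in WT lean and from 133 to 371 in WT obese mice (log2 fold change 0.05, SE 0.19, limma adjusted p = 0.918). In KO mice it ran from 126 to 277 in lean and from 153 to 254 in obese livers (0.30, SE 0.16, limma adjusted p = 0.198). The highest KO lean value was that of 1 mouse, 20R, and without it Ppard was called higher in KO obese vs KO lean mice (0.42, SE 0.13, limma adjusted p = 0.0291). In KO lean vs WT lean mice, where the groups did not overlap for 0.744% of genes and for 0 of the 10, 6 of 7 KO mice lay below all WT mice in Ppard, with 20R the exception, at a log2 difference of -0.37 (SE 0.17, limma adjusted p = 0.167) that was called without it (-0.49, SE 0.14, limma adjusted p = 0.0251).

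Rxra, the shared partner, at chr2:27676440-27762957 on the plus strand, varied little between mice, with a coefficient of variation of 5.7% to 14.7% over the groups of the 6 tables. It ran from 12679 to 17454 normalized counts in WT lean and from 11664 to 15348 in WT obese mice. In KO mice the ranges were 13036 to 18734 in lean and 13275 to 16168 in obese livers. The groups overlapped in both genotypes, and the log2 fold changes were -0.14 (SE 0.11, interval -0.37 to 0.08, limma adjusted p = 0.513) and 0.02 (SE 0.11, interval -0.22 to 0.25, limma adjusted p = 0.939).

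Ppargc1a, the fasting-induced coactivator at chr5:51454250-51567726 on the minus strand, varied widely between mice of a group, with a coefficient of variation of 51.9% to 110%. It ran from 334 to 2062 normalized counts in WT lean mice with a median of 1564, and from 319 to 987 in WT obese mice with a median of 413. No obese mouse reached the median of the lean mice, yet the 2 WT lean mice whose identifiers open with 8 stood at 334 and 367 within the obese range, while the other WT lean mice stood at 1024 or more. The log2 fold change was -1.02 (SE 0.43, interval -1.93 to -0.11) with an unadjusted p of 0.0298 and did not pass over all genes (limma adjusted p = 0.215). Without mouse 8R it was called (-1.30, SE 0.39, limma adjusted p = 0.0860). In KO mice the groups overlapped at 452 to 2180 in lean and 334 to 2258 in obese livers (log2 fold change -0.32, SE 0.41, limma adjusted p = 0.636). The 3 KO lean mice with identifier number 20 stood at 1057 to 2180, and those with numbers 9 and 14 at 452 to 631.

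Ppargc1b, on chromosome 18, was not called for diet. It ran from 119 to 362 normalized counts in WT lean and from 162 to 435 in WT obese mice (log2 fold change -0.03, SE 0.25, limma adjusted p = 0.967), and in KO mice from 92.0 to 255 and from 140 to 376 (0.29, SE 0.23, limma adjusted p = 0.413). Of 12 PGC-1 targets and partners, 0 were called in WT mice by limma. In KO mice 3 were higher and 3 lower with the diet, against 1 and 2 both under the block and without KO lean mouse 9L. Of all genes 12.0% were called higher and 12.1% lower there. Esrra, the receptor ERRα through which PGC-1 drives mitochondrial genes, fell by 0.97 (SE 0.18, limma adjusted p = 0.00518), and Gabpa, a subunit of a factor for mitochondrial genes, was higher at 0.43 (SE 0.10, limma adjusted p = 0.0166).

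**Figure D4:**
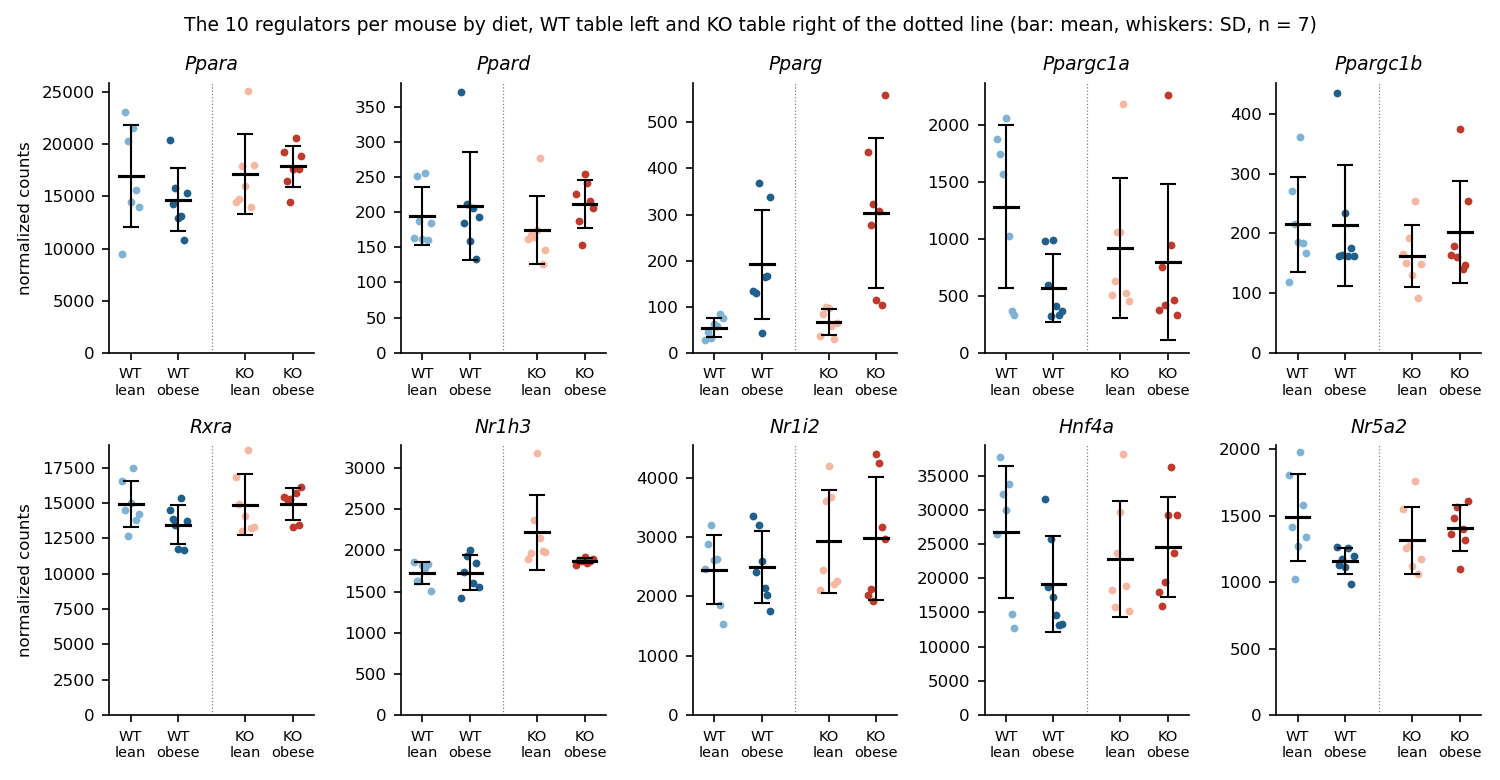
Normalized counts (vertical axis, a scale for each gene) of the 10 genes in each mouse (points), with the mean (bar) and SD (whiskers) of 7 mice per group, in the WT diet table left and the KO diet table right of the dotted line. Pparg is higher in obese mice on both sides, and the single high points of Ppargc1a are KO lean mouse 20R at 2180 and KO obese mouse 23L at 2258.

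Nr1h3, the oxysterol receptor LXRα at chr2:91184061-91202834 on the minus strand, ran from 1504 to 1859.5 normalized counts in WT lean and from 1420.5 to 2000.5 in WT obese mice (log2 fold change 0.00, SE 0.09, interval -0.20 to 0.20). KO obese mice lay close together at 1825 to 1925, against 1891 to 3190 in KO lean mice (log2 fold change -0.22, SE 0.11, limma adjusted p = 0.167). Of 10 LXR targets, 2 were higher and 2 lower in WT mice. The higher count was 0 under the block, 0 without WT lean mouse 21L or WT obese mouse 27RL, 2 without WT lean mouse 8RL or WT obese mouse 22L and 1 without any other mouse, while the lower count was 2 in each of these fits. Srebf1, the regulator of lipogenesis, was higher at 0.96 (SE 0.27, limma adjusted p = 0.0628), and Scd1, the desaturase that is also controlled by SREBP-1c, fell by 2.39 (SE 0.30, limma adjusted p = 0.000688). In KO mice 0 were higher and 2 lower (1 under the block and without KO lean mouse 14RL), with Scd1 at -2.25 (SE 0.43, limma adjusted p = 0.00591). Of all genes 12.1% were called lower there. The list medians were -0.17 and -0.01.

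Nr1i2, the xenobiotic receptor PXR at chr16:38248323-38294824 on the minus strand, ran from 1526 to 3196 normalized counts in WT lean and from 1749 to 3354 in WT obese mice (log2 fold change 0.03, SE 0.18, limma adjusted p = 0.955). In KO mice it ran from 2108 to 4198 in lean and from 1918 to 4402 in obese livers (0.00, SE 0.22, limma adjusted p = 0.994). Of 14 PXR targets, 2 were higher and 0 lower in WT mice, and 5 were higher and 0 lower in KO mice, with medians of 0.21 and 0.45. Under the block the higher counts were 2 and 4. Cyp2b10, which the receptor CAR also induces, led both, at 3.20 in WT (SE 0.54, limma adjusted p = 0.00395) and 4.22 in KO mice (SE 0.65, limma adjusted p = 0.00255). All 7 obese mice lay above all lean mice in both genotypes. Nr1i3, which encodes CAR, was called higher with the diet in WT (0.94, SE 0.29, limma adjusted p = 0.0912) and in KO mice (0.60, SE 0.10, limma adjusted p = 0.00388). It was the one call in WT mice among the other nuclear receptors, and that count was 0 under the block, with equal library totals and in 9 of 14 fits with a mouse left out. Of all genes 3.65% were called higher in WT mice.

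Hnf4a, at chr2:163506808-163572910 on the plus strand, ran from 12672 to 37764 normalized counts in WT lean and from 13113 to 31562 in WT obese mice, and the groups overlapped (log2 fold change -0.46, SE 0.27, interval -1.02 to 0.11, limma adjusted p = 0.390). The 2 WT lean mice with identifier number 8 stood at 12672 and 14706, and the other WT lean mice at 26381 or more. In KO mice Hnf4a ran from 15184 to 38124 and from 15961 to 36225 (0.13, SE 0.23, limma adjusted p = 0.741). The 3 KO lean mice with number 20 stood at 23620 to 38124, and those with numbers 9 and 14 at 15184 to 18848. Of 14 HNF4α targets, 0 were called in WT mice by limma, 0 by edgeR and 1 by DESeq2. In KO mice 2 were higher and 0 lower, against 0 under the block, and 0 were higher in 3 of 14 fits with a mouse left out (20L of KO lean, 10R and 31L of KO obese). The share of all genes called higher there was close to this, at 12.0%.

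Nr5a2, at chr1:136842571-136960448 on the minus strand, ran from 1023 to 1980.5 normalized counts in WT lean mice with a median of 1415, and from 984 to 1264 in WT obese mice with a median of 1175. The overlap was partial and the log2 fold change -0.33 (SE 0.13, interval -0.60 to -0.06, unadjusted p = 0.0193, limma adjusted p = 0.174). In KO mice it was 0.11 (SE 0.12, limma adjusted p = 0.586). The difference between the genotypes was 0.44 (SE 0.18, interval 0.08 to 0.80, unadjusted p = 0.0196) and did not pass over all genes (limma adjusted p = 0.190). Without KO lean mouse 20R it was called (0.51, SE 0.17, limma adjusted p = 0.0633). Of 7 tested LRH-1 targets, 1 was higher in WT mice, Cyp7a1, the rate-limiting enzyme of bile acid synthesis (1.17, SE 0.36, limma adjusted p = 0.0895), and 1 was lower in KO mice, the HDL receptor Scarb1 (-0.26, SE 0.10, limma adjusted p = 0.0875). Both counts were 0 under the block, the first also in 9 and the second in 10 of 14 fits with a mouse left out. Of all genes 3.65% were called higher in the WT and 12.1% lower in the KO diet comparison.

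Loss of ChemR23 in lean mice called none of the 10 genes by limma and none by edgeR, although 16.3% of 13031 tested genes were called and 3 of the 10 passed an unadjusted p under 0.05, beside 26.8% of all genes. DESeq2 called 1, Ppargc1b. The 3 were Ppargc1b, Nr5a2 and Ppard. Ppargc1b ran from 83.5 to 232 normalized counts in KO lean mice with a median of 137, and from 124 to 379 in WT lean mice with a median of 194 (log2 difference -0.58, SE 0.23, limma adjusted p = 0.125). Nr5a2 ran from 964 to 1607 in KO lean and from 1063 to 2069 in WT lean mice (-0.36, SE 0.15, limma adjusted p = 0.133). In each of these genes the highest KO lean mouse was 20R, and without it Ppargc1b (-0.70, SE 0.23, limma adjusted p = 0.0410) and Nr5a2 (-0.44, SE 0.14, limma adjusted p = 0.0451) were called lower, beside Ppard.

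Of 17 coregulators, the coactivators and corepressors that nuclear receptors recruit, 10 were lower and 0 higher in KO lean vs WT lean mice, where 8.30% of all genes were lower. Under the block 0 were called, as in every target and marker list in this comparison, and without WT lean mouse 21L or 26R 2 were. In KO obese vs KO lean mice 8 were higher and 0 lower, against 2 under the block. Both counts rest on the same KO lean mice. The list medians were -0.47 and 0.48. Pprc1, a relative of the PGC-1 coactivators, fell by 0.88 in KO lean mice (SE 0.20, limma adjusted p = 0.0347), from 446 ± 115 to 245 ± 70.1 normalized counts (SD, n = 7). It was higher by 0.83 in KO obese vs KO lean mice (SE 0.18, limma adjusted p = 0.0113). The corepressor Ncor1 and the acetyltransferase Ep300, named after their values were seen, fell by 0.60 and 0.59 in KO lean mice. In WT obese vs WT lean mice 0 of the 17 were called by limma, 0 by edgeR and 1 by DESeq2.

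The coregulator counts also changed with other processing. With single mice left out, the lower count in KO lean mice was 2 when either 21L or 26R of the WT lean mice was omitted. Omitting KO lean mouse 9L gave 3, 20L gave 4, 20-2L gave 6 and 20R gave 13. The higher count in KO obese mice was 3 without KO obese mouse 31R, 4 without KO lean mouse 9L and 13 without 20R. With a correction for gene length and GC content 5 were lower and 1 higher in KO lean mice, and 6 were higher in KO obese mice. Equal library totals gave 13 in each, with the median of all genes moved by -0.12 and 0.14. Markers of Kupffer cells, the resident macrophages, moved as well: 6 of 6 were called higher in KO lean vs WT lean mice (median 0.91), led by Cd5l at 1.32 (SE 0.23, limma adjusted p = 0.0247), and 5 of 6 lower in KO obese vs KO lean mice (median -0.91, and 4 under the block), where their summed level ran from 3912.5 to 5250 in obese and from 7018 to 14949 in lean livers. In WT obese vs WT lean mice 0 of the 6 were called by limma. Of 5 sinusoidal endothelial markers 3 were lower in KO obese vs KO lean mice and 1 was higher in KO lean vs WT lean mice, and of the lymphocyte markers 3 of 5 were lower and 1 of 3 tested was higher. Under the block the lower counts in KO obese vs KO lean mice were 0 for sinusoidal endothelial and 1 for lymphocyte markers. In KO lean vs WT lean mice 2 of 5 stellate cell and 1 of 4 cholangiocyte markers were lower. None of the 6 hepatocyte markers, and none of the acinar pancreas and erythroid markers that could be tested, was called by limma. The part of these cells in the coregulator counts was not tested.

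In the same comparison of KO lean vs WT lean mice, all calls in the other target lists were likewise lost under the block. Of all genes 8.00% were called higher and 8.30% lower in it, and several of the list counts below are near these shares. Of the PPARα targets 3 were higher and 0 lower, led by Mlycd (0.56, SE 0.16, limma adjusted p = 0.0504), with a median of 0.20. The count was 0 to 5 with single mice left out, being 0 without WT lean mouse 21L or 26R or KO lean mouse 20L or 9L and 5 without 8RL or 20R. Of 6 tested PPARγ targets 1 was higher, Cd36 (0.71, SE 0.25, limma adjusted p = 0.0817), with a median of 0.83 over the 6, and the count was 0 in 8 of 14 fits with a mouse left out and 3 without WT lean mouse 8RL and 4 without KO lean mouse 20R. Of 12 PGC-1 targets and partners 4 were higher and 0 lower, led by Esrra (0.87, SE 0.20, limma adjusted p = 0.0357). The falls of Mlycd and Esrra in KO obese vs KO lean mice rest on the same KO lean mice. Among 26 tested other nuclear receptors 3 were higher and 2 lower, and with the diet 1 of 27 was higher in WT mice while 7 were higher and 4 lower in KO mice. The KO counts were 3 and 3 under the block, and 4 and 4 without KO obese mouse 31R. In KO lean vs WT lean mice the counts with single mice left out ran from 1 to 6 higher and from 0 to 3 lower. Esrra stood both among the other nuclear receptors and among the PGC-1 targets and partners, and was counted in each list. One PXR target, the exporter Abcc2 (-0.66, SE 0.18, limma adjusted p = 0.0460), and 1 HNF4α target, the lipoprotein assembly factor Mttp (-0.40, SE 0.14, limma adjusted p = 0.0747), were lower. With single mice left out the count of lower HNF4α targets ran from 0 to 3 and was 0 in 8 of 14 fits, and that of PXR targets ran from 0 to 2 and was 0 without WT lean mouse 21L or 26R or KO lean mouse 9L. With single mice left out, higher PGC-1 targets and partners numbered 1 to 4. Of the LXR targets 0 were called by limma, edgeR or DESeq2, and of the LRH-1 targets 0 by limma, 0 by edgeR and 1 by DESeq2.

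In obese mice, KO against WT, 0 of the 10 genes were called by limma, edgeR or DESeq2, and 0 had an unadjusted p under 0.05, with 0.0141% of 14162 genes called and 2.25% under that unadjusted p. The groups overlapped for all 10, as they did for all but 0.0282% of genes. The differences ran from -0.25 for Ppargc1b to 0.51 for Pparg on the log2 scale. The interaction of diet and genotype called 0 of the 10 by limma, edgeR or DESeq2, with 0.00710% of 14093 genes called, and 1, Nr5a2, had an unadjusted p under 0.05, beside 18.2% of genes.

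With RvE1, 0 of the 10 genes were called by limma, edgeR or DESeq2 in either genotype, and the groups overlapped for each of them. In WT obese+RvE1 vs WT obese mice 0 of 10 had an unadjusted p under 0.05, beside 6.08% of genes, 0% of 13085 genes were called and 0.107% did not overlap. Pparg ran from 173 to 322 normalized counts with RvE1 and from 50.7 to 435 without (log2 fold change 0.29, SE 0.36, interval -0.47 to 1.04, limma adjusted p = 0.969). The treated mice lay inside the range of the untreated ones. The largest difference was that of Ppargc1b, at -0.50 (SE 0.25, interval -1.03 to 0.04, limma adjusted p = 0.859). In KO obese+RvE1 vs KO obese mice 0% of 14207 genes were called, 0.0211% did not overlap and 8.30% had an unadjusted p under 0.05, among the 10 genes Hnf4a alone. It ran from 15569 to 20841 with RvE1 and from 16136 to 36366 without (-0.38, SE 0.17, interval -0.74 to -0.02, limma adjusted p = 0.580). Pparg was at -0.16 (SE 0.38, interval -0.96 to 0.64, limma adjusted p = 0.920).

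A difference of the RvE1 response between genotypes was called for 0 of the 10 genes by limma, edgeR or DESeq2, with 0% of 13061 genes called and 2.39% under an unadjusted p of 0.05. Ppara had an unadjusted p of 0.0309, with a response in KO mice 0.45 below that in WT mice (interval -0.85 to -0.04, limma adjusted p = 1.00). All target and coregulator lists had 0 genes called by limma in the RvE1 comparisons, in obese KO vs WT mice and in both interactions, and 0 by edgeR. DESeq2 called 1 PPARα target higher in each RvE1 comparison and, for the interaction of diet and genotype, 4 coregulators higher. In that interaction limma called 9 coregulators higher and 1 lower without KO lean mouse 20R, and 8 higher without WT obese mouse 22L.

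Within groups, the 10 genes varied together from mouse to mouse in some pairs. After the group mean was removed from the log2 values, Pearson's r over 42 mice had a median of 0.19 among 45 pairs of the genes, against 0.02 between the members and all other genes searched. Of the pairs 10 had an r above 0.5. The highest was Nr1i2 with Hnf4a (r = 0.81, Spearman's rho = 0.82, and r = 0.84 without the 2 mice farthest from the median of the first gene), followed by Rxra with Nr5a2 (r = 0.80, rho = 0.79, 0.75 without 2 mice), Ppargc1a with Nr1i2 (r = 0.79, rho = 0.73, 0.73 without 2 mice) and Ppara with Ppard (r = 0.79, rho = 0.76, 0.80 without 2 mice). The lowest was Ppard with Nr1h3 (r = -0.42, rho = -0.34). The values of a mouse share its library and depth, and mice share identifier numbers, so these are descriptions.

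**Figure D5:**
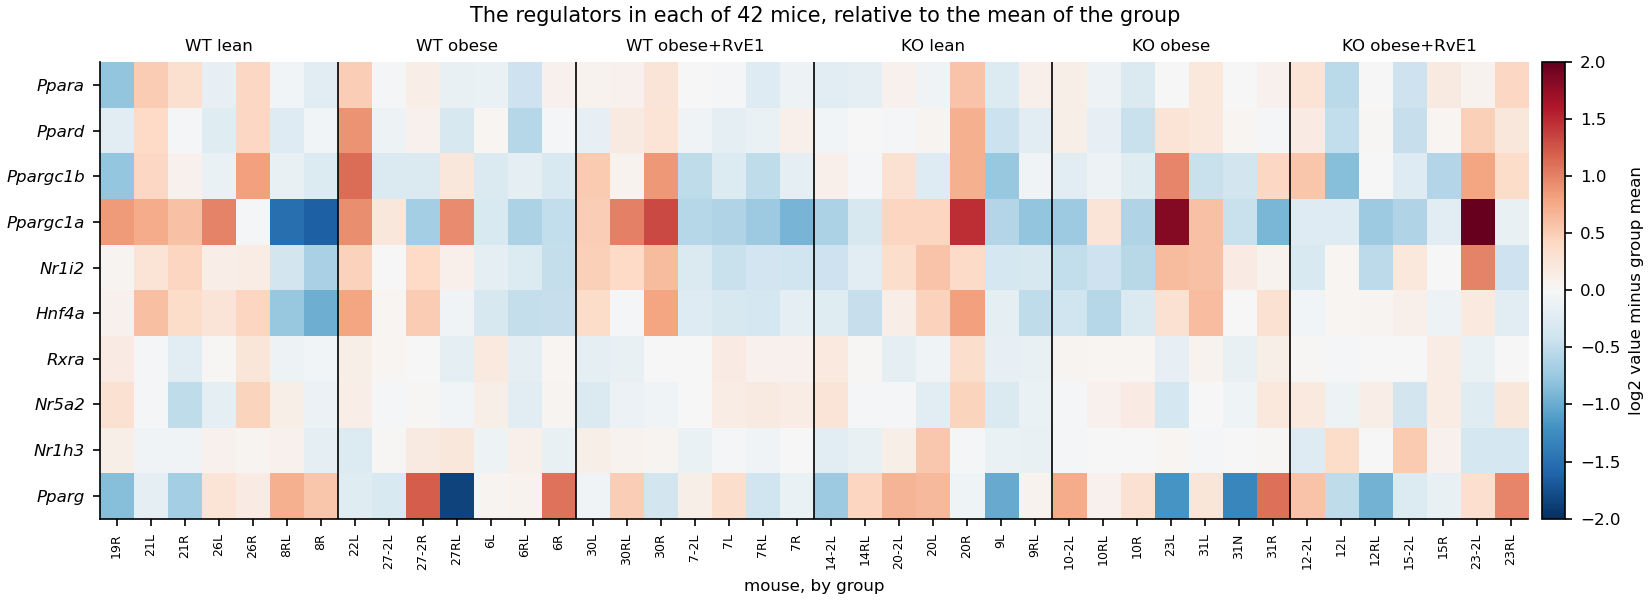
Log2 values of the 10 genes minus the mean of the group (colour) in each of 42 mice (horizontal axis), with groups separated by lines. Columns such as WT obese 22L and KO lean 20R are above the group mean for Ppara, Ppard, Ppargc1a, Ppargc1b and Hnf4a together, while Pparg in the bottom row varies apart from them.

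Among 10465 other genes, the 2 most like Pparg over the 42 mice included Rcan2 (r = 0.75, rho = 0.68, 0.69 without 2 mice). Ppara was most like Csnk1d (r = 0.90, rho = 0.84) and Fnip2 (r = 0.86, rho = 0.83), and Ppard most like Myadm (r = 0.87, rho = 0.80) and Tns1 (r = 0.86, rho = 0.83). For Ppargc1a they were Atp1b1 (r = 0.89, rho = 0.81) and Ell2 (r = 0.88, rho = 0.82), and for Ppargc1b Cobll1 (r = 0.82, rho = 0.73) and Myo1e (r = 0.80, rho = 0.67). Rxra was most like Rnf10 (r = 0.76, rho = 0.73) and Ddx54 (r = 0.75, rho = 0.77). Nr1h3 was most like Prrg2 (r = 0.91, rho = 0.86) and Sdhaf2 (r = 0.88, rho = 0.85). For Nr1i2 the 2 were Slc10a2 and 1810011O10Rik (both r = 0.93, rho = 0.85 and 0.89), for Hnf4a Ablim3 (r = 0.92, rho = 0.92) and Ipmk (r = 0.89, rho = 0.89), and for Nr5a2 Zcchc24 (r = 0.83, rho = 0.81) and Slc35d1 (r = 0.80, rho = 0.84). Without the 2 farthest mice every one of these stood at 0.69 or more.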

How the data were processed

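Total RNA libraries were made by the authors with the TruSeq Stranded kit, 1 per mouse, read in pairs, aligned to mm10 with Bowtie2 and counted per gene with featureCounts. The labels name polyA RNA as the molecule and a total RNA library protocol. Neither tool versions nor the annotation or strandedness of counting is given in the sources used here. Reads therefore cannot be told from those of antisense genes for Pparg (Gm44079), Hnf4a (Hnf4aos), Ppargc1a (Gm42613), Nr1h3 (Gm23390) and Ppargc1b (Gm25301). Genes on the same strand also overlap Ppargc1a, Ppargc1b, Nr1h3 and Hnf4a. The deposited signal values are the authors' reads per gene divided by a DESeq2 size factor, set in each table on its own and called normalized counts here. The deposited tables also hold the authors' fold changes and p-values, which were not used. All 84 columns of samples were matched to mice by title.

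Whole reads were recovered from the deposited values: 100% were whole within 0.1 reads. No pair of libraries of a group was a repeat (126 pairs, smallest chi-square per gene 21.9). Of 19732 gene names, 93.0% matched GENCODE M21 on GRCm38, which gave positions and exon lengths. Promoter sequences came from RefSeq (GRCm38.p6).

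Each comparison was tested in limma 3.58.1 (R 4.3.3, lmFit and eBayes with trend, two-sided) on log2(normalized count + 1), for genes with a mean of at least 5 over the 14 mice, with Benjamini-Hochberg adjustment and a call under 0.1. Fold changes on this scale understate those of genes with few counts. Interactions were fitted over the 2 tables without shared mice. Alternatives were pseudocounts of 0.5 and 4, no filter, TMM scaling, equal library totals, edgeR 4.0.16 (quasi-likelihood) and DESeq2 1.42.0 (Wald) on the recovered reads, library quality weights, the identifier number as a random block, a length and GC correction (loess span 0.3), an adjusted p under 0.05, a fold above 1.5, and each mouse left out. The procedure was also run on simulated data in which mice were drawn independently. Such data cannot show how it performs where mice with the same identifier number are alike. Figures and correlations used Python 3.11.15.

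The 10 genes, the target and marker lists, the tests and the rule for named genes were chosen with earlier results of these data known. Named were the 10 genes, Cmklr1, in each list and comparison the called gene with the smallest adjusted p in each direction, and for each of the 10 the 2 genes with the highest r among genes with a mean of at least 50. In the lists of 8 LRH-1 targets and 28 other nuclear receptors, genes with low means were not tested. Some genes that the rule names are not reported here.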

Additional observations from a re-analysis of the deposited data

Results flagged for a closer look

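Of 60 groups of 7 mice (10 genes in 6 groups), 9 held a highest mouse set apart from the others by more than Dixon's 95% limit for the gap over the range. Chance flags about 1 in 20 groups of independent, normally distributed values. The limit was applied to counts that were not on the log scale, and some of the 10 genes vary together from mouse to mouse. That rate therefore need not hold for these groups. Mouse 20R of KO lean was set apart in 3 genes, at 25090 normalized counts of Ppara, 277 of Ppard and 2180 of Ppargc1a. Mouse 22L of WT obese was set apart in 2, at 371 of Ppard and 435 of Ppargc1b. Mouse 23L of KO obese stood at 2258 of Ppargc1a. In KO obese+RvE1, mouse 23-2L stood at 2420 of Ppargc1a and 4233 of Nr1i2. Mouse 20L of KO lean stood at 3190 of Nr1h3. Both mice with high Ppargc1a on the high fat diet in KO livers have identifiers that open with 23, and what that number marks is not stated in the labels. Mouse 23RL of KO obese+RvE1 has the same number and was not set apart. Its Ppargc1a lay with the others of its group, at 316 to 469 normalized counts. No interaction of diet or RvE1 with genotype was called for any of the 10 genes by limma.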

How the results depend on the processing

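Over 12 alternatives of the 8 comparisons, the number of the 10 genes called was within 1.5 times that of the main test in 88 of 96 cases. Many of these could hardly move. In obese KO vs WT mice, both RvE1 comparisons and the RvE1 interaction, limma called at most 0.0141% of all genes, and the number was 0 throughout. An adjusted p under 0.05 and a fold above 1.5 could only remove calls. The number moved in WT obese vs WT lean mice, from 1, to 2 by DESeq2 (Nr5a2 added) and with library quality weights (Ppargc1a added), and to 0 with the identifier number as block. In KO obese vs KO lean mice it moved from 1 to 2 with equal library totals (Ppard added). In KO lean vs WT lean mice it moved from 0 to 1 by DESeq2, 3 with equal library totals (Ppard, Ppargc1b, Nr5a2) and 5 with quality weights (those, Ppargc1a and Hnf4a). For the interaction of diet and genotype it moved from 0 to 2 with quality weights (Hnf4a, Nr5a2). Equal totals shifted the median of all genes by 0.14 in KO obese vs KO lean and by -0.12 in KO lean vs WT lean mice. With each mouse left out, the number ran from 1 to 2 in WT obese vs WT lean and in KO obese vs KO lean mice, from 0 to 3 in KO lean vs WT lean mice, from 0 to 1 for the interaction of diet and genotype, and stayed at 0 in the other 4 comparisons. No called fold change of the 10 genes reversed. The cause of these moves was not tested. No paired analysis was possible because the labels number no replicates, and the groups compared share 0 identifier numbers, except for number 23 in KO obese and KO obese+RvE1, which is too few to pair. The identifier number, used as a random replicate block in its place, had consensus correlations of 0.0643 to 0.373, and it left 0 genes called in WT obese vs WT lean and 1 in KO obese vs KO lean mice. Pparg had the lowest mean count of the 10 genes in WT lean mice, where depth limits precision most.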

Other observations

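Clock genes, which cycle through the day and which the labels tie to no harvest time, were called in both diet comparisons. Of 12 tested, 3 were higher and 2 lower in WT obese vs WT lean mice, and 4 were higher and 1 lower in KO obese vs KO lean mice. Hlf and Per3 were higher and Npas2 lower in both. Npas2 was the one lower clock gene in KO mice, with a mean of 3.51 normalized counts in obese and 12.3 in lean livers (limma adjusted p = 0.0901), and the lower count was 0 in 9 of 14 fits with a mouse left out. With the identifier number as block, 1 was higher and 1 lower in WT and 4 were higher and 0 lower in KO mice. Clock itself fell by 0.70 in WT mice (SE 0.15, limma adjusted p = 0.0146). Per3, a repressor of the clock, was higher in all 7 WT obese mice than in any WT lean mouse, at a log2 fold change of 1.48 (SE 0.24, limma adjusted p = 0.00284), and Hlf, an output factor, was higher in all 7 KO obese mice than in any KO lean mouse, at 0.72 (SE 0.11, limma adjusted p = 0.00255). In KO lean vs WT lean mice 0 were called by limma, 0 by edgeR and 1 by DESeq2. Their part in the changes of the 10 genes was not tested.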
